A study of Mus musculus with 36 samples.

Results

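The 10 genes described here serve the osteoclast, the cell that resorbs bone, and the RANK signalling that forms it: Tnfsf11, Tnfrsf11a, Tnfrsf11b, Nfatc1, Dcstamp, Ocstamp, Atp6v0d2, Acp5, Ctsk and Calcr. They were chosen by name, with earlier results of these data known, and 10 of 10 were found among the 55291 gene names of the count table. They were followed in 9 RNA-seq libraries of mouse knee joint tissue taken at 24 h. The groups were 3 sham libraries from knees left uninjured, 3 from knees with injury of the anterior cruciate ligament (ACL) and 0.9% saline as vehicle, and 3 from knees with ACL injury and an inhibitor of protein kinase C (PKC). The labels used here give no strain, sex or age, no name or dose of the inhibitor, and no statement on pooling of animals.

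An osteoclast forms when a precursor of the monocyte lineage receives RANK ligand (RANKL, Tnfsf11) through its receptor RANK (Tnfrsf11a) in the presence of macrophage colony-stimulating factor (M-CSF). Osteoprotegerin (OPG, Tnfrsf11b) is a secreted decoy receptor that binds RANKL and keeps it from RANK. RANK signals through TRAF6, NF-κB and AP-1 to NFATc1 (Nfatc1), the transcription factor that switches on genes for cell fusion, acid secretion and matrix digestion. In the joint, osteoclasts work on the bone beneath the cartilage.

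Total counts ran from 124309584 to 202134770 per library, but 91.2% to 98.2% of them fell on genes and gene models of 7SL RNA. This left 3282084 to 11945772 counts per library for all other genes. Of these, 9.14% (sham 3) to 53.6% (inhibitor 1) fell on genes of the small nucleolar RNA U3. The 10 genes together held 705 to 3016 counts per library. Counts are given below as normalised counts, corrected for library size, and means carry the SD over 3 libraries. Inhibitor libraries 1 and 2 stood apart by their 7SL share (91.5% and 91.2%, against 96.7% or more elsewhere), and values without them are given where they moved a fold change of the 10 genes by over 1.5 times. Groups rest on the column names of the count table, whose order differs from the command in its header. A protocol text on other samples of the study calls this material cartilage, yet markers of bone, marrow neutrophils and muscle were counted in every library. Of 6 osteoclast markers, Acp5, Ctsk and Atp6v0d2 had at least 28 counts in every library, whereas Dcstamp, Ocstamp and Calcr had 0 to 13. In whole tissue, fewer osteoclasts and less RNA per osteoclast cannot be told apart. Which cells made each transcript, Acp5 and Ctsk included, was not measured.

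Upstream sequence is shown for 3 genes, because Acp5 and Ctsk had the highest levels of the 10 and Tnfsf11 encodes the ligand of the pathway. Each window is the 250 bases before a transcription start, 5′ to 3′ on the gene's strand, from RefSeq on GRCm38.p6, whose table matched 5 of the 10 genes. Capitals mark matches on either strand to the NFAT core GGAAA, the PU.1 box GAGGAA, the AP-1 site TGANTCA or the MITF M-box CATGTG, motifs of factors known to drive osteoclast genes. A PU.1 box followed by A also holds an NFAT core.
Ctsk (chr3:95498960-95499209, + strand): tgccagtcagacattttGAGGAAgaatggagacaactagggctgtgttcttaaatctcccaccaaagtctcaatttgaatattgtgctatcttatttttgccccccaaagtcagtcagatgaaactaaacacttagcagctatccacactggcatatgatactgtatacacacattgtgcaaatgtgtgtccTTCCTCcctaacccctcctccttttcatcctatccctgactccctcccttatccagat
Acp5, outer start (chr9:22135747-22135996, − strand): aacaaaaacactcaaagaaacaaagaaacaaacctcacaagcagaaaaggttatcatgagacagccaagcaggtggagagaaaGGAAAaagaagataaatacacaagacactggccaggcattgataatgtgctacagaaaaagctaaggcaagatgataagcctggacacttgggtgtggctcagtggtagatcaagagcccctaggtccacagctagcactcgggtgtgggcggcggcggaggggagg
Acp5, inner start (chr9:22130599-22130848, − strand): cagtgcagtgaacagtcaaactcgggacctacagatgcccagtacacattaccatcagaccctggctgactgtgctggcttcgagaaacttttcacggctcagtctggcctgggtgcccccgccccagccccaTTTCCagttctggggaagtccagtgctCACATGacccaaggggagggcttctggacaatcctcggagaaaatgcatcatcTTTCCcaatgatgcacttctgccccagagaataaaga
Tnfsf11 (chr14:78308044-78308293, − strand): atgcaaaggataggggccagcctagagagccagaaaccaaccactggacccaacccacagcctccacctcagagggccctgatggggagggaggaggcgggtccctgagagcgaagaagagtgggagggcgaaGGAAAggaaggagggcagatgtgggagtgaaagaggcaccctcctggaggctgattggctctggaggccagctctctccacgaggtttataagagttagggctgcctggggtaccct
The Ctsk window held 2 PU.1 boxes. Of 3 Acp5 windows the outer held 1 NFAT core and the inner 2 NFAT cores and 1 M-box. The middle one (chr9:22131866-22132115) held 1 NFAT core and is not shown. The Tnfsf11 window held 1 NFAT core. Among 32851 promoter windows of this length, 55.6% held an NFAT core, 23.3% a PU.1 box, 12.3% an M-box and 6.75% an AP-1 site. A match is a string of letters, and binding was not measured. Counts are summed per gene and do not tell the Acp5 starts apart.

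Per kilobase of exon, the levels were ordered as follows. Acp5 averaged 238.7 normalised counts per kb over the 9 libraries (range 101.6 to 422.7) and Ctsk 232.0 (range 106.7 to 372.9). Acp5 lay above Ctsk in 3 of 9 libraries, so the order of these 2 was not resolved. Atp6v0d2 (40.4, range 12.3 to 60.8) and Nfatc1 (39.5, range 31.9 to 46.7) came next, below Ctsk in 9 of 9 libraries, and their ranges overlapped. Tnfrsf11b at 10.7, Tnfrsf11a at 6.76 and Tnfsf11 at 4.94 normalised counts per kb followed, all below Nfatc1 in every library and each overlapping its neighbour. Atp6v0d2 overlapped Tnfrsf11b (range 4.26 to 18.0), and lay below it in vehicle 2. Dcstamp at 1.81, Ocstamp at 1.5 and Calcr at 0.476 were lowest on average and overlapped as well. Tnfsf11 lay above Dcstamp in 7 of 9 libraries, and their ranges overlapped too.

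Injury with vehicle was compared with sham first. RANKL and OPG transcripts were higher, and transcripts of the resorption enzyme Ctsk lower, in every vehicle library than in every sham library, but no gene of the 10 passed the test. edgeR's quasi-likelihood test, with Benjamini-Hochberg adjustment over 13823 genes and a threshold of 0.05, covered 7 of the 10, since Dcstamp, Ocstamp and Calcr had too few counts. It called 0 of 7, where 0.304% of all tested genes were called. DESeq2 also called 0, against 1.12% of all genes, and 2 of 7 had an unadjusted p under 0.05 in either tool, where 8.28% of all genes did in edgeR. The groups did not overlap for 3 of the 7 (2 higher, 1 lower), where this held for 17.0% of all tested genes (8.2% higher, 8.76% lower). The median log2 fold change was 0.08 over the 7 genes and −0.02 over all tested genes.

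Tnfsf11, the ligand (chromosome 14 from 78277445 to 78308043 on mm10, the build of all gene positions here), had 3, 7 and 1 counts in sham libraries 1 to 3, 16, 13 and 11 in vehicle and 1, 23 and 14 in inhibitor libraries. As normalised counts these were 3.49, 9.18 and 1.89 in sham, 26.6, 15.5 and 15 in vehicle and 0.75, 8.96 and 18.2 in inhibitor libraries. Every vehicle library lay above every sham library, and the inhibitor libraries ran from below the lowest sham value into the vehicle range. Vehicle was 3.69-fold higher than sham (log2 fold change 1.89, SE 0.88, adjusted p = 0.6), on 40 against 11 counts. With 1 library left out, the log2 fold change ran from 1.57 to 2.69, the highest without sham 2.

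Tnfrsf11b, the decoy receptor (chromosome 15 from 54250619 to 54278484), was at 27.9, 13.1 and 24.5 in sham, 38.2, 40.4 and 36.8 in vehicle and 12.0, 28.8 and 50.6 in inhibitor libraries, in normalised counts. The vehicle libraries lay close together above all sham libraries, and the inhibitor libraries reached from below the lowest sham value to above the highest vehicle value. The difference of vehicle from sham was not called (log2 fold change 0.82, SE 0.5, adjusted p = 0.72).

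The ratio of RANKL to OPG, in counts per kb, was 0.158, 0.882 and 0.0969 in sham, 0.877, 0.482 and 0.513 in vehicle and 0.0788, 0.392 and 0.452 in inhibitor libraries. Sham 2 was as high as the highest vehicle library, so the groups overlapped. The means were 0.379 ± 0.437 in sham, 0.624 ± 0.22 in vehicle and 0.308 ± 0.2 with inhibitor (SD, n = 3 each). The sham ratios rest on 1 to 7 counts of Tnfsf11 per library, and the ratio was not tested.

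**Figure D1:**
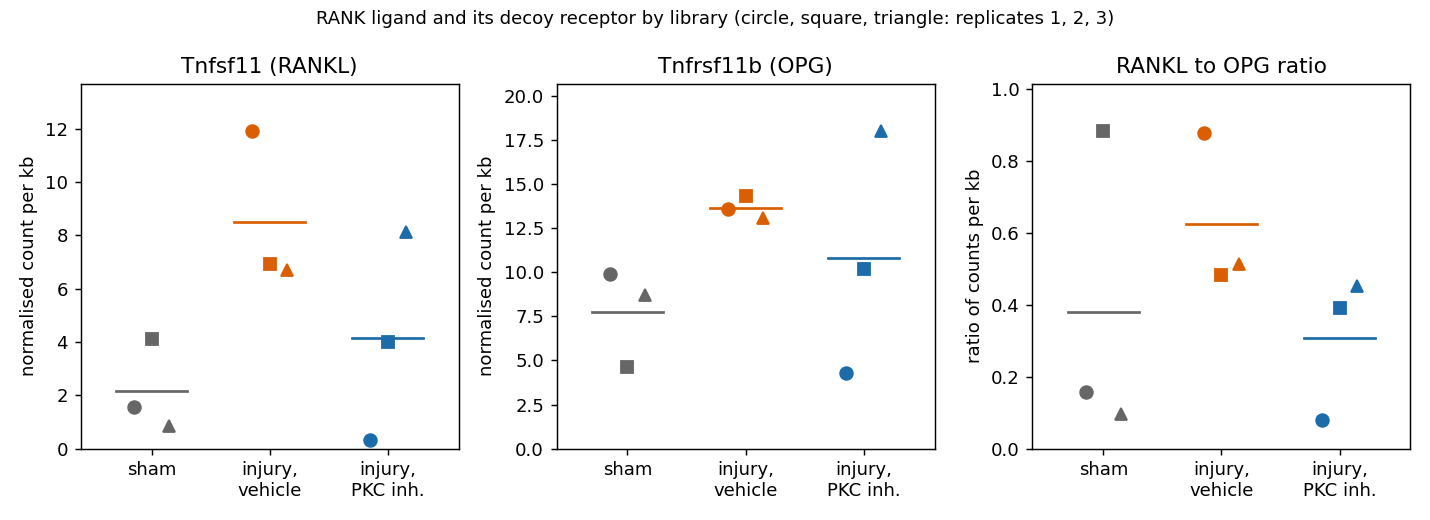
Normalised counts per kilobase of exon for Tnfsf11 (RANKL) and Tnfrsf11b (OPG), and the ratio of the 2 in counts per kb, in each library of the 3 groups on linear axes. The 3 vehicle libraries lie above the 3 sham libraries for both genes, while the ratios overlap because sham 2 reaches 0.882.

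Tnfrsf11a, the receptor RANK (chromosome 1 from 105780718 to 105847981), was at 18.6, 30.2 and 52.8 in sham, 39.9, 35.7 and 35.5 in vehicle and 39.0, 60.4 and 51.9 in inhibitor libraries, in normalised counts. The sham libraries enclosed all vehicle libraries, and no difference was called (log2 fold change 0.16, SE 0.4, adjusted p = 0.963).

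Nfatc1, the transcription factor, was at 295.3, 292.4 and 273.4 in sham, 348.9, 243.7 and 317.8 in vehicle and 238.5, 339.7 and 305.0 in inhibitor libraries, in normalised counts. Its sham libraries lay closest together of the 10 genes relative to their mean (coefficient of variation 4.14%), and within the vehicle range. The difference of vehicle from sham was not called (log2 fold change 0.08, SE 0.21, adjusted p = 0.966). Nfatc1 is also expressed by lymphocytes and endothelium.

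Ctsk encodes cathepsin K, the protease that digests bone collagen (chromosome 3 from 95499256 to 95509362). It was at 397.7, 491.6 and 563.9 in sham, 352.3, 259.1 and 230.5 in vehicle and 161.3, 259.8 and 441.3 in inhibitor libraries, in normalised counts. All vehicle libraries lay below all sham libraries, and inhibitor 3 lay within the sham range. Vehicle was 1.73-fold lower than sham, without a call (log2 fold change −0.79, SE 0.31, adjusted p = 0.47). The difference passed in 2 of 16 alternatives. The first was a fit of the compared groups alone (adjusted p = 0.0481 by edgeR). That fit called 291 of 12629 tested genes, against 42 of 13823 in the main fit. The other left out inhibitor 1 and 2 (log2 fold change −0.77). Over all 16 the adjusted p ran from 0.0437 to 0.832.

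Acp5 encodes tartrate-resistant acid phosphatase, the classical stain of osteoclasts (chromosome 9 from 22126727 to 22135711). It was at 483.7, 753.8 and 858.1 in sham, 661.3, 261.5 and 272.8 in vehicle and 206.3, 329.6 and 533.5 in inhibitor libraries, in normalised counts. Vehicle 1 lay within the sham range, and vehicle 2 and 3 below it. The difference was not called (log2 fold change −0.81, SE 0.45, adjusted p = 0.703), and the log2 fold change was −1.38 without vehicle 1.

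Atp6v0d2 encodes a subunit of the proton pump and takes part in precursor fusion (chromosome 4 from 19876841 to 19922605). It was at 165.1, 112.7 and 122.6 in sham, 162.8, 33.3 and 40.9 in vehicle and 60.0, 139.1 and 150.6 in inhibitor libraries, in normalised counts. Vehicle 1 again lay within the sham range, while vehicle 2 and 3 were the lowest of the 9 libraries. The difference was not called (log2 fold change −0.79, SE 0.61, adjusted p = 0.807), and the log2 fold change was −1.85 without vehicle 1.

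**Figure D2:**
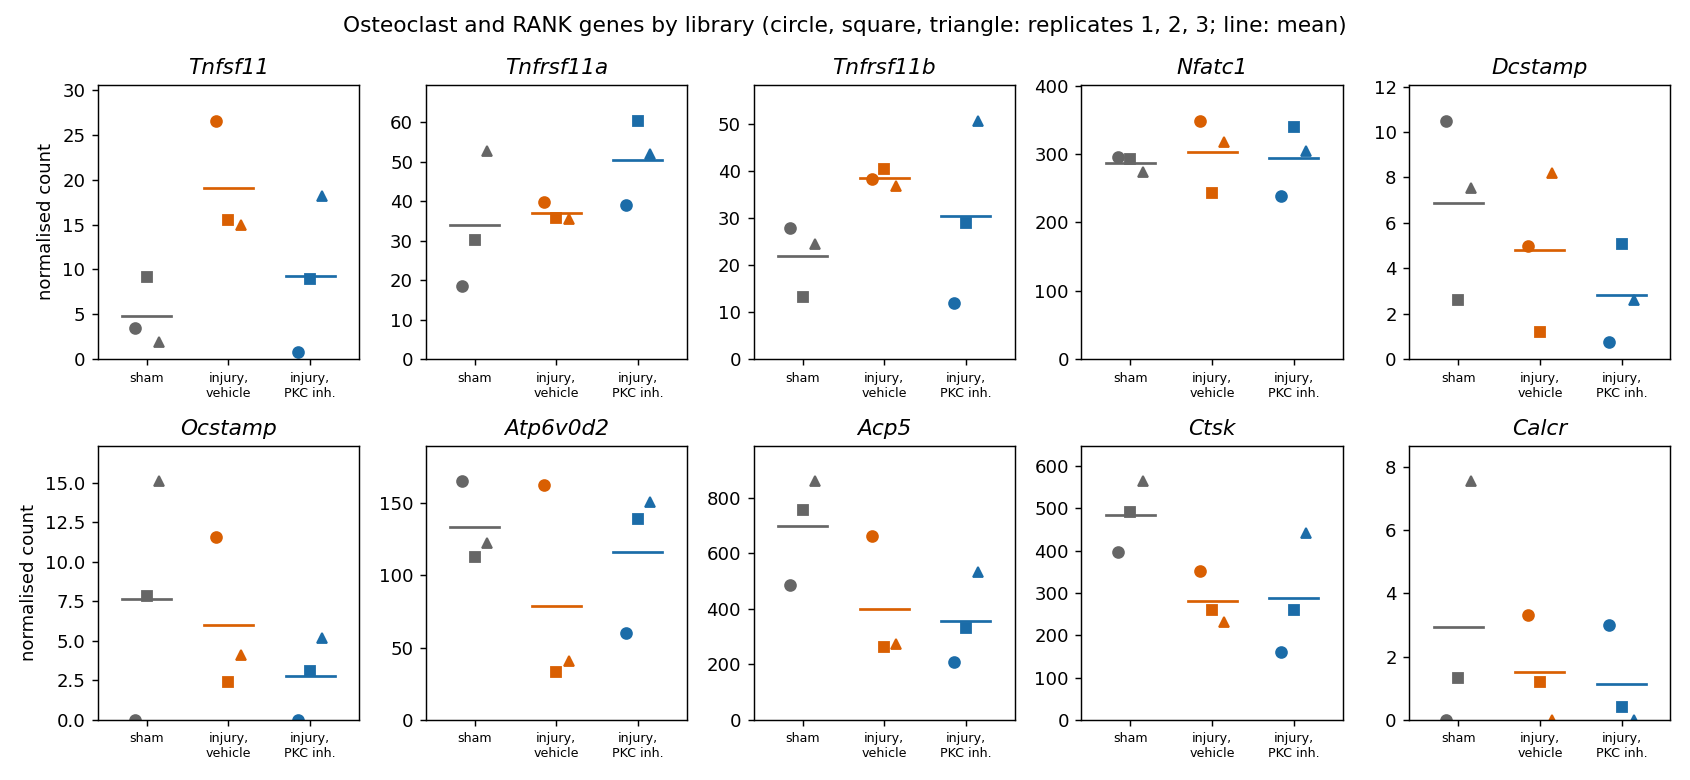
Normalised counts of the 10 genes in each library of the 3 groups, on linear axes; symbols mark the replicates and lines the group means. Vehicle 1 lies within the sham range for Acp5 and Atp6v0d2, and all 3 vehicle libraries lie below sham for Ctsk.

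The fusion genes and the calcitonin receptor were close to the limit of detection. Dcstamp, a membrane protein that precursors need for fusion (chromosome 15 from 39745930 to 39760938), had 9, 2 and 4 counts in sham, 3, 1 and 6 in vehicle and 1, 13 and 2 in inhibitor libraries. Ocstamp, which also acts in fusion (chromosome 2 from 165393760 to 165400405), had 0, 6 and 8 counts in sham, 7, 2 and 3 in vehicle and 0, 8 and 4 in inhibitor libraries. Calcr, the calcitonin receptor of mature osteoclasts (chromosome 6 from 3685680 to 3764714), had 0, 1 and 4 counts in sham, 2, 1 and 0 in vehicle and 4, 1 and 0 in inhibitor libraries. The groups overlapped for these 3 genes, and no difference was detectable at this depth. A count of 0 allows up to 3 counts, or 1.17 to 5.66 normalised counts depending on the library, for counting error only.

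The PKC inhibitor was then compared with vehicle, both after injury. The 2 groups overlapped for every gene of the 10, and none was called. edgeR called 0 of 7 tested genes, with 0 of 7 at an unadjusted p under 0.05, and DESeq2 called 0 as well, against 2.57% of all genes. In edgeR, of all tested genes, 0.731% were called, 13.4% had an unadjusted p under 0.05 and 18.9% did not overlap between the groups. The median log2 fold change was −0.04 over the 7 genes and 0.04 over all tested genes.

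Among the signalling genes, the log2 fold change of inhibitor against vehicle was −1.09 (SE 0.8, adjusted p = 0.581) for Tnfsf11 and −0.37 (SE 0.47, adjusted p = 0.776) for Tnfrsf11b. It was 0.45 (SE 0.38, adjusted p = 0.633) for Tnfrsf11a and −0.04 (SE 0.2, adjusted p = 0.954) for Nfatc1. Inhibitor 1 was the lowest inhibitor library for each of these 4 genes. Without it, the log2 fold change was −0.53 for Tnfsf11 and 0.01 for Tnfrsf11b. Without inhibitor 1 and 2 the values were −0.05 and 0.39, and without inhibitor 3 they were −1.83 and −0.89.

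Of the effector genes, Ctsk averaged 287.5 ± 142.1 against 280.6 ± 63.7 normalised counts, a log2 difference of 0.03 (SE 0.31, adjusted p = 0.982). The spread among the inhibitor libraries was larger than the difference. The log2 fold change was −0.16 (SE 0.45, adjusted p = 0.914) for Acp5 and 0.59 (SE 0.61, adjusted p = 0.718) for Atp6v0d2. Both depended on vehicle 1, without which they were 0.41 and 1.64. Without inhibitor 1 and 2, the log2 fold change of Ctsk was 0.66 and that of Acp5 0.42.

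The inhibitor group was also set against sham, a comparison that shares libraries with both others. Again no gene of the 10 was called, and the lowest p-values were those of the resorption enzymes. Ctsk averaged 287.5 ± 142.1 against 484.4 ± 83.3 normalised counts and was 1.69-fold lower (log2 fold change −0.76, SE 0.31, adjusted p = 0.212). Acp5 averaged 356.4 ± 165.3 against 698.5 ± 193.2, a log2 difference of −0.97 (SE 0.45, adjusted p = 0.308). Inhibitor 3 lay within the sham range for both. edgeR called 0 of 7 and DESeq2 0 of 7, where edgeR called 3.95% and DESeq2 6.4% of all tested genes. An unadjusted p under 0.05 was reached by 1 of 7 in edgeR and 2 of 7 in DESeq2, against 18.0% of all genes in edgeR. The groups overlapped for all 7, while 22.9% of all tested genes did not overlap. The median log2 fold change was 0.04 over the 7 genes and 0.03 over all tested genes.

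With no filter on low counts, where 3.92% of all genes were called, edgeR called Acp5 (adjusted p = 0.00568) and Ctsk (adjusted p = 0.0475). Without inhibitor 3, edgeR called Ctsk (log2 fold change −1.2, adjusted p = 0.0215), where it called 641 of 14555 tested genes. Over all 16 alternatives the adjusted p ran from 0.00568 to 0.85 for Acp5 and from 0.0215 to 0.918 for Ctsk. Without inhibitor 1 and 2, the log2 fold changes were −0.12 for Ctsk and −0.37 for Acp5. The other log2 fold changes against sham were 0.8 (SE 0.9, adjusted p = 0.69) for Tnfsf11, 0.45 (SE 0.49, adjusted p = 0.683) for Tnfrsf11b and 0.61 (SE 0.38, adjusted p = 0.44) for Tnfrsf11a. They were 0.04 (SE 0.2, adjusted p = 0.948) for Nfatc1 and −0.2 (SE 0.59, adjusted p = 0.895) for Atp6v0d2. For Tnfsf11 the value was 0.06 without inhibitor 3 and 1.61 without sham 2. Without inhibitor 1 and 2 it was 1.84 for Tnfsf11 and 1.22 for Tnfrsf11b.

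**Figure D3:**
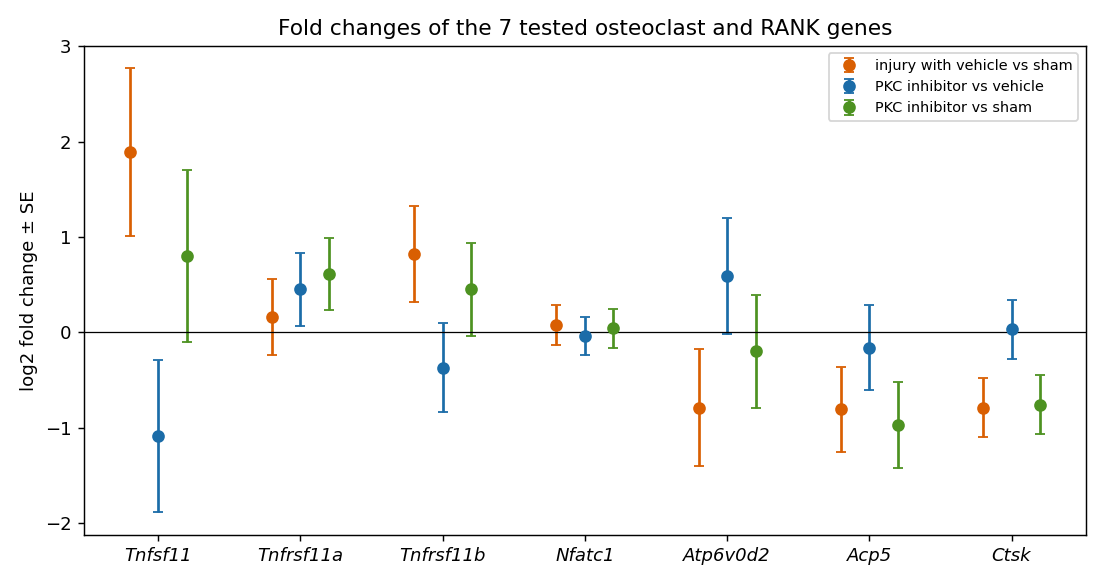
Log2 fold change with its standard error for the 7 tested genes in the 3 comparisons. Against sham, Tnfsf11, Tnfrsf11a, Tnfrsf11b and Nfatc1 have positive and Acp5, Ctsk and Atp6v0d2 negative values in both injured groups. None passes the adjusted threshold. Both comparisons use the same sham libraries, so their signs are not independent.

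The levels of the genes were also set against each other. Per kb, the ratio of Acp5 to Ctsk was 0.906, 1.14 and 1.13 in sham, 1.4, 0.752 and 0.881 in vehicle and 0.953, 0.945 and 0.9 in inhibitor libraries, and the groups overlapped. The ratio of Tnfrsf11a to Ctsk was 0.0118, 0.0155 and 0.0237 in sham, 0.0286, 0.0348 and 0.0389 in vehicle and 0.0611, 0.0587 and 0.0297 in inhibitor libraries. Every injured library thus had more receptor transcript per Ctsk transcript than every sham library. This pattern was chosen after its values were seen and was not tested. How many other gene ratios separate alike was not counted. Tnfrsf11a alone overlapped between the groups. The ratio of Atp6v0d2 to Ctsk overlapped too (0.121 to 0.231 in sham, 0.0715 to 0.257 in vehicle, 0.19 to 0.298 in inhibitor libraries).

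Across the 9 libraries, which share their groups and their scaling, Acp5 and Ctsk had a Pearson coefficient of 0.946 in log2 CPM (counts scaled to library size). Among 11264 tested genes outside the 10 with a mean of at least 20 normalised counts, the 5 most like each were taken. Ly6g, a surface marker of mature neutrophils with a mean of 26.3 normalised counts, was among them for both Acp5 (0.921) and Ctsk (0.948). No other marker of the neutrophil list summed below was among them. The other genes most like Acp5 were Gm10241 (0.945), Gm37416 (0.92), Grpel2 (0.917) and Smt3h2-ps4 (0.914). For Ctsk they were Ppwd1 (0.932), Kif22 (0.922), Supt5 (0.91) and Arsb (0.892). Atp6v0d2 had 0.712 with Acp5 and 0.631 with Ctsk, while Tnfsf11, Tnfrsf11a and Tnfrsf11b lay between −0.0342 and 0.137 with either.

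Markers of other marrow and joint cells were summed in the same libraries. The 6 osteoclast markers summed to 1056.9 to 1574.7 normalised counts in sham, 556.5 to 1196.4 in vehicle and 431.3 to 1133.2 in inhibitor libraries. This sum came almost wholly from Acp5, Ctsk and Atp6v0d2, and so repeats their values above. The 8 neutrophil markers summed to 15054.3 to 20431.3 in sham, 7889.2 to 10213.9 in vehicle and 8040.1 to 17396.0 in inhibitor libraries. The 8 B lineage markers summed to 548.8 to 589.5 in sham, 409.2 to 466.9 in vehicle and 261.8 to 398.5 in inhibitor libraries. Both marrow lists, and the muscle list given below, were lower in every vehicle library than in every sham library, as Ctsk was, with no marker of the 3 lists at 0 in any library. In inhibitor libraries 1 to 3 the neutrophil sum was 9608.2, 17396.0 and 8040.1, where Ctsk was at 161.3, 259.8 and 441.3. The part of these lists in the Ctsk result was not tested.

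The 12 markers of monocytes and macrophages, the lineage from which osteoclasts form, overlapped between the groups (2655.7 to 3453.0 in sham, 2661.4 to 4037.5 in vehicle, 2857.7 to 4648.5 in inhibitor libraries). The 12 markers of osteoblasts and osteocytes, which make RANKL and OPG, were at 65844.3 to 112707.8, 62479.5 to 72383.7 and 20725.1 to 50684.9 in the same order, with Fgf23 at 0 throughout. The 8 chondrocyte markers were at 8227.9 to 25183.6, 7905.8 to 10636.7 and 1786.5 to 4678.2. Bone and cartilage markers, like the B lineage markers above, were thus lower in every inhibitor library than in every other library. The 8 muscle markers were at 9362.5 to 23874.9, 5895.8 to 7337.6 and 2719.0 to 28483.9, highest in inhibitor 1. The 6 T cell markers, of cells that can make RANKL, were at 17.0 to 49.8, 25 to 38.2 and 24.0 to 37.0, with up to 4 of them at 0 in a library. The part of these tissues in the inhibitor values was not tested.

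**Figure D4:**
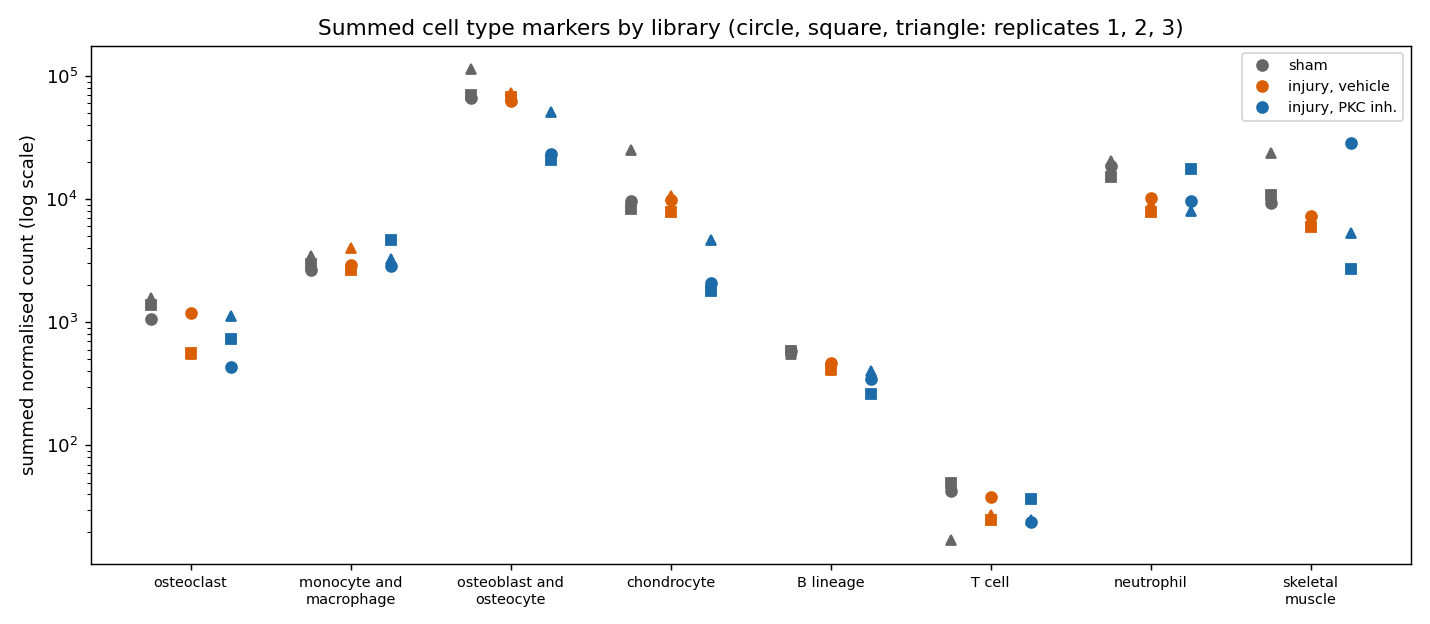
Summed normalised counts of the marker lists in each library, on a log axis, coloured by group. The neutrophil, B lineage and muscle sums are lower in every vehicle than in every sham library. The osteoblast, chondrocyte and B lineage sums are lowest in the inhibitor libraries.

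The wider pathway was followed in 92 genes in 6 lists, of which 86 were tested. Their values below are normalised counts. The lists were chosen with earlier results of these data known, so the shares called below do not test the lists. With injury, 2 of 86 rose and 0 fell (2.33%, where 0.304% of all tested genes were called). Between inhibitor and vehicle, edgeR called 0 of 86, where 0.731% of all tested genes were called. Between inhibitor and sham, 4 rose and 2 fell (6.98%, where 3.95% of all tested genes were called). Without inhibitor 1 and 2, the inhibitor arm has 1 library, which is assumed to vary like the other groups. The log2 fold change against sham was then 1.5 for Ccl9 (adjusted p = 0.0304 by edgeR). The values of the other 5 were −1.04 for Clcn7 (adjusted p = 0.259), −0.81 for Mmp9 (0.244), 1.24 for Fos (0.161), 0.93 for Rbpj (0.128) and 0.9 for Il1r1 (0.389), none of them called.

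Of 20 tested genes of bone resorption, 15 had a negative log2 fold change with injury (median −0.17, against −0.02 over all tested genes), and none was called. With inhibitor, 2 fell against sham. Clcn7, the chloride transporter that balances acid secretion (chromosome 17 from 25133391 to 25162104), was at 88.4, 85.2 and 94.3 in sham, 83.1, 84.4 and 72.3 in vehicle and 48.0, 42.1 and 42.8 in inhibitor libraries. The inhibitor libraries lay below all others, and Clcn7 fell 2.01-fold against sham (log2 fold change −1.01, SE 0.25, adjusted p = 0.0346). It was not called against vehicle (log2 fold change −0.85, SE 0.25, adjusted p = 0.138). Mmp9, gelatinase B, made by osteoclasts and neutrophils alike (chromosome 2 from 164940780 to 164955850), was at 854.6, 825.9 and 1410.6 in sham, 714.5, 644.3 and 559.3 in vehicle and 299.3, 599.9 and 580.2 in inhibitor libraries. Mmp9 fell 2.09-fold against sham (log2 fold change −1.06, SE 0.28, adjusted p = 0.0449). Of 8 neutrophil markers, 5 were called lower with inhibitor against sham, where 3.95% of all genes were called, though the sum in inhibitor 2 (17396.0) lay within the sham range. Against vehicle, 3 had a positive and 5 a negative log2 fold change, none called. Their part in Mmp9 was not tested. Tcirg1, the pump subunit typical of osteoclasts, was at 297.7, 275.3 and 529.9 in sham, 373.9, 385.1 and 375.1 in vehicle and 79.5, 86.1 and 216.8 in inhibitor libraries, with adjusted p = 0.0962 against vehicle and 0.0505 against sham by edgeR. The call of Clcn7 was lost without any 1 sham or vehicle library, inhibitor 2 or inhibitor 3 (adjusted p up to 0.109 by edgeR), with no filter (0.0696) and in a fit of the compared groups alone (0.074), while its log2 fold change stayed between −1.07 and −0.95 over 16 alternatives. That of Mmp9 was lost without any 1 sham or vehicle library or inhibitor 2 (adjusted p up to 0.183 by edgeR), and with the compared groups alone (0.115).

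Of 21 tested genes of RANK signalling, 16 had a positive log2 fold change with injury (median 0.15, against −0.02 over all tested genes). None was called in any of the 3 comparisons. Rcan1, a calcineurin inhibitor and NFAT target, was at 123.3, 132.4 and 81.1 in sham, 264.2, 194.9 and 229.2 in vehicle and 197.3, 248.5 and 136.3 in inhibitor libraries, higher in every vehicle than in every sham library (log2 fold change 1.02, SE 0.26, adjusted p = 0.155). Nfkb2, of the non-canonical NF-κB branch, was at 157.4 ± 28.1 against 101.6 ± 4.34 with injury (adjusted p = 0.37 by edgeR). Traf3, which restrains that branch, was at 162.2 ± 29.3 against 120.8 ± 30.8 with inhibitor against vehicle (adjusted p = 0.445 by edgeR). Lgr4, a second receptor of RANKL, was at 33.6 ± 14.6 against 56.6 ± 26.3 with inhibitor against sham (adjusted p = 0.39 by edgeR).

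None of 11 tested genes of fusion and costimulation was called in any comparison. With injury, Cd44, a hyaluronan receptor, was at 650.0 ± 119.4 against 372.1 ± 48.0, Trem2, a receptor of macrophages, at 31.8 ± 10.8 against 18.7 ± 12.8, and Btk, a kinase of immunoreceptor signalling, at 51 ± 8.13 against 78.7 ± 12.6. With inhibitor against vehicle, Plcg2, a phospholipase of that signalling, was at 167.9 ± 46.7 against 264.7 ± 66.8, the tetraspanin Cd9 at 148.6 ± 19.2 against 187.6 ± 27.3, and Sirpa, the receptor of CD47, at 270.9 ± 86.0 against 346.7 ± 38.1.

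Of 12 tested activating transcription factors, Fos, the AP-1 component that osteoclast formation needs (chromosome 12 from 85473890 to 85477273), was called. It was at 29.1, 34.1 and 43.4 in sham, 116.3, 89.2 and 159.6 in vehicle and 55.5, 102.8 and 81.8 in inhibitor libraries. All injured libraries lay above all sham libraries. Fos rose 3.46-fold with injury (log2 fold change 1.79, SE 0.32, adjusted p = 0.0288) and 2.29-fold with inhibitor against sham (log2 fold change 1.19, SE 0.32, adjusted p = 0.0497). The first call was lost without any 1 sham library, vehicle 1 or vehicle 3 (adjusted p up to 0.233 by edgeR), and the second without any 1 library other than inhibitor 1 (up to 0.204) and with the compared groups alone (0.112). Jun, its partner in AP-1, was at 142.9 ± 6.74 against 81.2 ± 16.4 with injury (adjusted p = 0.26 by edgeR). Myc was at 106.8 ± 46.6 against 208.3 ± 38.8 with inhibitor against vehicle (adjusted p = 0.14 by edgeR), and Mitf at 54.3 ± 4.29 against 34.9 ± 12.3 (adjusted p = 0.413).

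Of 9 tested regulators that restrain osteoclast formation, Rbpj, the DNA-binding effector of Notch (chromosome 5 from 53466152 to 53657362), was called. It was at 122.1, 236.0 and 201.8 in sham, 277.5, 277.0 and 257.8 in vehicle and 449.3, 397.3 and 350.5 in inhibitor libraries, highest in the inhibitor libraries. It rose 2.15-fold with inhibitor against sham (log2 fold change 1.1, SE 0.23, adjusted p = 0.0169), a call lost without sham 1 or sham 3 (adjusted p up to 0.0859 by edgeR) or with the compared groups alone (0.0681). With injury, the NF-κB inhibitor Tnfaip3 was at 52.5 ± 5.38 against 32.3 ± 9.29 and the inhibitory receptor Lilrb4a at 240.8 ± 73.4 against 172.7 ± 61.5, without a call. Lilrb4a (1793 counts over the 9 libraries) overlaps Gm49339 (1688 counts) on its strand, so the reads of the 2 may be shared. With inhibitor against sham, Nfkbia, which holds NF-κB in the cytoplasm, was at 217.8 ± 28.9 against 160.6 ± 17.2, also without a call.

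Of 13 tested genes of M-CSF and other cytokines of osteoclast formation, 11 had a positive log2 fold change with injury (median 0.39, against −0.02 over all tested genes). Between inhibitor and vehicle all 13 had a negative one (−1.16 to −0.02, median −0.41, against 0.04 over all tested genes), none called there. Both comparisons use the vehicle libraries, on opposite sides, so the 2 sets of signs are not independent. Ccl9, a chemokine of osteoclasts and myeloid cells (chromosome 11 from 83572919 to 83578636), was at 67.4, 62.9 and 52.8 in sham, 257.5, 149.8 and 339.6 in vehicle and 189.0, 351.4 and 172.6 in inhibitor libraries. All injured libraries lay above all sham libraries. Ccl9 rose 4.04-fold with injury (log2 fold change 2.01, SE 0.34, adjusted p = 0.0288) and 3.89-fold with inhibitor against sham (log2 fold change 1.96, SE 0.34, adjusted p = 0.00858). The first call was lost without any 1 sham library, vehicle 1 or vehicle 3 (adjusted p up to 0.177 by edgeR), and the second without sham 3 (0.056).

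Il1r1, the signalling receptor of interleukin-1 (chromosome 1 from 40225080 to 40317257), was at 24.4, 34.1 and 66.0 in sham, 123.0, 103.4 and 110.5 in vehicle and 111.8, 130.1 and 74.0 in inhibitor libraries. It rose 2.64-fold with inhibitor against sham (log2 fold change 1.4, SE 0.34, adjusted p = 0.0314), and was not called with injury (log2 fold change 1.47, SE 0.34, adjusted p = 0.115). The call was lost without sham 1 or 2, vehicle 1 or 3, or inhibitor 2 (adjusted p up to 0.148 by edgeR), and with the compared groups alone (0.112). Ptgs2, whose product prostaglandin raises RANKL in stromal cells, was at 5.81, 5.24 and 11.3 in sham, 101.4, 22.6 and 58.7 in vehicle and 5.25, 45.6 and 28.6 in inhibitor libraries, and was not called with injury (log2 fold change 3.05, SE 0.81, adjusted p = 0.2). Il1b was at 270.9 ± 112.0 against 80.6 ± 10.5 with injury (adjusted p = 0.653 by edgeR), and Il17ra at 118.1 ± 45.5 against 189.2 ± 9.9 with inhibitor against vehicle (adjusted p = 0.289).

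**Figure D5:**
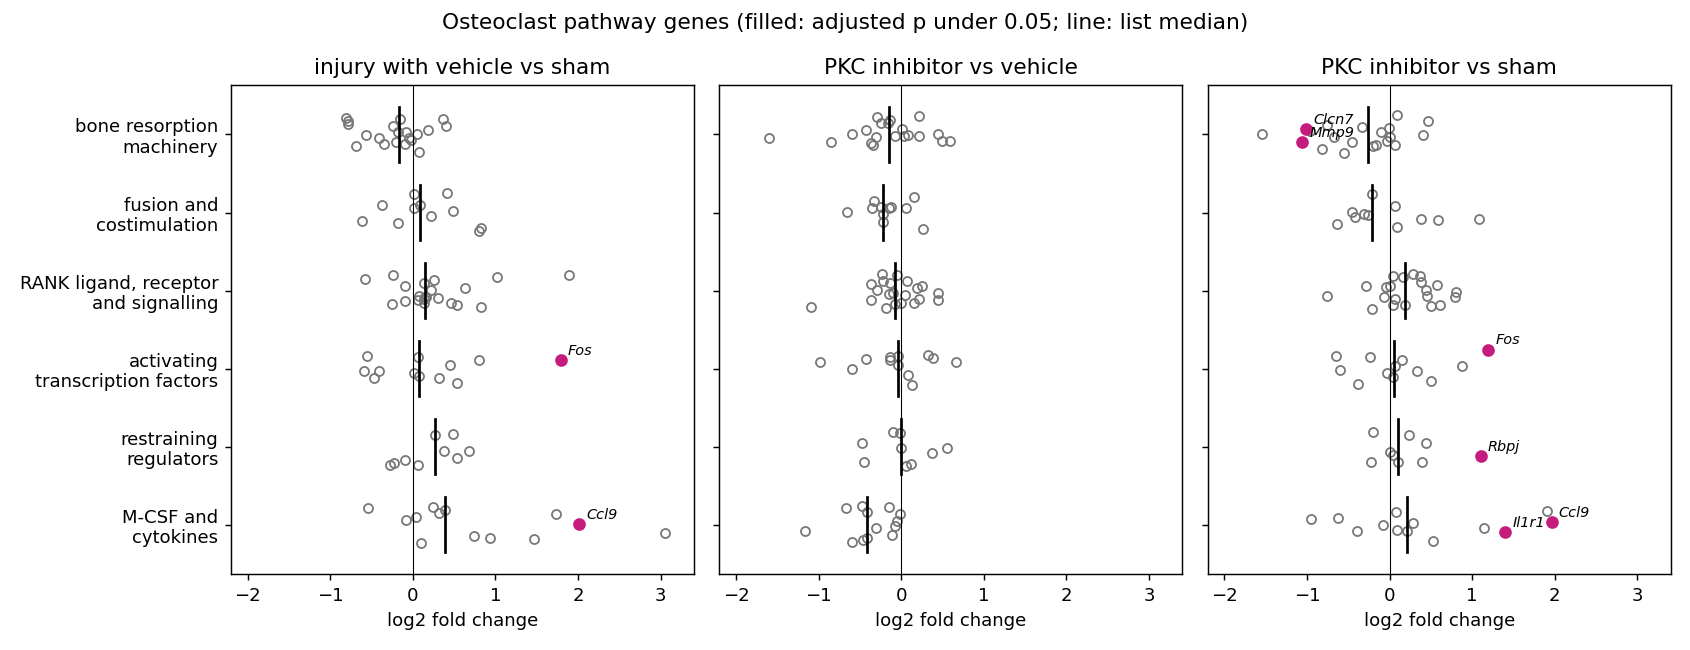
Log2 fold change of each tested gene of the 6 lists in the 3 comparisons; filled points passed the adjusted threshold of 0.05 and lines are list medians. Fos and Ccl9 passed with injury, none with inhibitor against vehicle, and Clcn7, Mmp9, Fos, Rbpj, Ccl9 and Il1r1 with inhibitor against sham.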

How the data were processed

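Per the labels' protocols, TRIzol-extracted RNA went through ribosomal RNA depletion and gave paired reads of 100 bp (DNBSEQ-G400 sequencer). The deposited values are raw counts per gene name, made by the authors with featureCounts 2.0.1 over GENCODE M25 exons on the reverse strand, with multi-mapping and overlapping reads counted in full, per the file headers. HISAT2 and mm10 are named in the submitters' processing notes. None of the 10 genes overlaps another gene on its strand. A further 27 columns of other tables match no sample label and were not used.

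Genes were filtered with filterByExpr (13823 of 55291 kept), scaled by TMM and fitted over all 9 libraries with edgeR 4.0.16 (robust quasi-likelihood F test, two-sided, Benjamini-Hochberg adjustment over all tested genes, threshold 0.05). The SE is the log2 fold change over the square root of F. Normalised counts are counts over the effective library size (total count times TMM factor), times the mean of that size over the libraries. Likeness used log2 CPM with a prior count of 2. DESeq2 1.42.0, other scaling and filters, the compared groups alone, a replicate block and leaving out libraries were alternatives.

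All 10 genes are reported. Of each pathway list, called genes are named, and others come from the 3 with the largest change per comparison among those with a mean of at least 20 normalised counts. The genes and lists were chosen with earlier results of these data known. The labels call replicates biological without naming animals, so p-values measure the spread between these samples, which may be technical.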

Additional observations from a re-analysis of the deposited data

How the results depend on the processing

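Up to 16 alternatives were run for each result. Over all genes, the number called for vehicle against sham was 42, and 155 in DESeq2, 262 with no filter, 291 with the compared groups alone, 301 without inhibitor 1 and 2 and 1 to 234 with 1 library left out. For inhibitor against vehicle it was 101, and 355 in DESeq2, 554 with no filter, 3 with the compared groups alone, 20 without inhibitor 1 and 2 and 0 to 256 with 1 library left out. The 0 came without vehicle 2, where edgeR gave 1301 genes an unadjusted p under 0.05. In DESeq2 these calls split into 50 higher and 305 lower, against 4 and 97 in edgeR. For inhibitor against sham it was 546, and 885 in DESeq2, 1056 with no filter, 198 with the compared groups alone, 174 without inhibitor 1 and 2 and 141 to 841 with 1 library left out.

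Of the 10 genes, 0 were called in each comparison. With injury this became 1 with the compared groups alone and 1 without inhibitor 1 and 2. For inhibitor against sham it became 2 with no filter and 0 to 1 with 1 library left out. Correlations of deviations from the group means ran from −0.241 to 0.0694 between same-numbered libraries and from −0.167 to 0.202 between differently numbered ones. They gave no sign of pairing by number, but cannot exclude it. A replicate block gave 24, 103 and 420 called genes in the 3 comparisons, and 0 of the 10 in each. With the block, adjusted p values by edgeR of called pathway genes rose to 0.064 for Clcn7, 0.057 for Mmp9, 0.061 for Fos and 0.0564 for Il1r1 with inhibitor against sham, and to 0.0857 for Ccl9 with injury.

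Uncalled log2 fold changes near 0 reversed; ranges in brackets are those with 1 library left out. With injury, Tnfrsf11a (−0.15 to 0.6) was at −0.15 without sham 1 and Nfatc1 (−0.03 to 0.24) at −0.03 without vehicle 1. Between inhibitor and vehicle, Tnfrsf11b (−0.89 to 0.01) was at 0.01 without inhibitor 1 and 0.39 without inhibitor 1 and 2. Nfatc1 (−0.19 to 0.1) was at 0.01 with no filter, and at 0.07, 0.1 and 0.01 without vehicle 1, inhibitor 1, and inhibitor 1 and 2. Acp5 (−0.57 to 0.41) was at 0.41, 0.12 and 0.42 in the same 3 cases. Ctsk (−0.41 to 0.32) was at −0.07 with the replicate block, and at −0.04, −0.1 and −0.41 without vehicle 2, vehicle 3 and inhibitor 3. Against sham, Tnfrsf11b (−0.07 to 0.83) was at −0.07 without inhibitor 3 and Nfatc1 (−0.08 to 0.17) at −0.08 without inhibitor 2. Atp6v0d2 (−0.42 to 0.11) was at 0.11 without inhibitor 1 and 0.18 without inhibitor 1 and 2. The cause was not tested. Adding 0.5 to each count moved no RANKL to OPG mean by more than its SD. Depth limits Tnfsf11, Dcstamp, Ocstamp and Calcr most, with 13 to 89 counts each over the 9 libraries.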
